A study of Mus musculus with 6 samples.

Results

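The genes described here are 36 genes of the type I interferon response, chosen by symbol with earlier results of these data known. Shares of members set beside those of all tested genes are therefore descriptions. The count tables held a row for 35 of them among 23337 gene rows, and all 35 passed the filter on low counts that left 13442 tested genes. No row carried the symbol Ifi27. The gene-name table lists Ifi27l1 as an older name of Ifi27, so its values are given below under the symbol the files use.

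Type I interferons are secreted proteins that cells make when their sensors detect viral or misplaced nucleic acid. They bind the receptor Ifnar1/Ifnar2, the kinases Jak1 and Tyk2 are activated, and Stat2 and Irf9 become part of a complex that binds the interferon-stimulated response element (ISRE) in promoters. The genes switched on in this way encode antiviral proteins, more sensors and transcription factors, and proteins that shut the signal down again. Fibroblasts are a classic interferon-responsive and interferon-producing cell, and many of these genes have a low resting level in unstimulated cultures.

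RNA was sequenced from primary stromal fibroblasts of the mammary gland of C57BL/KaLawRij mice aged 7 weeks, in 6 samples that each pooled the cells of 3 mice. In 3 samples the mice were homozygous for the cpdm allele of Sharpin (cpdm/cpdm, Sharpin deficient), and in the other 3 they were wild type (wt/wt). Sharpin encodes a subunit of the linear ubiquitin ligase complex, with Rnf31 and Rbck1, and the loss is present in every cell of the animal. All 6 cultures were unpassaged (p0), were grown to confluence in medium with serum and were freed of floating cells before lysis, and none of the labels names an interferon or other treatment.

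Libraries carry the numbers 1, 2 and 3 in both genotypes, and the labels do not say what a number marks. A pair below is the Sharpin-cpdm and the wild-type library with the same number. Libraries held between 13570649 and 15656196 gene counts, and 3 counts corresponded to between 0.195 and 0.224 CPM, in which each count is divided by the gene total of its library and rescaled. Sharpin itself was at 10.3, 9.42 and 9.25 CPM in Sharpin-cpdm libraries 1, 2 and 3, and at 24.2, 25.8 and 31.3 CPM in wild-type libraries 1, 2 and 3, so the groups did not overlap and followed the labels. Fibroblast markers were all present and summed to between 79393 and 97466 CPM, mostly collagen transcripts. P-values of the genotype fit without a term for number measure the spread between these pooled cultures. Those of the fits with a term for number measure only what is left after genotype and number are fitted, with 2 residual degrees of freedom.

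Promoter sequences are shown first, because the ISRE is what the members are known to share and was not used to choose them. RefSeq promoters (GRCm38.p6, 250 bases before to 50 bases after the start) were given for 26 of the 36 members. The ISRE core was searched as GAAANNGAAA on both strands, and 15 of 26 members (57.7%) had at least 1 match, against 1079 of 27025 promoters in the table (3.99%) and 351 of 9559 promoters of tested genes (3.67%). Stretches from 9 of these promoters follow, 5′ to 3′ on the gene's strand, with the letters of ISRE core matches in capitals. They show Ifit1 and Ifit3, Isg15, the transcription factor Stat2, antiviral effectors, a guanylate-binding protein and a pair of neighbouring OAS genes. The other 11 of the 26 had no match: Ifit2, Ifi44, Oasl1, Oasl2, Irf7, Irf9, Ifi35, Xaf1, Cmpk2, Herc6 and Lgals3bp.
Ifit1 (chr19:34640765-34640833, plus strand): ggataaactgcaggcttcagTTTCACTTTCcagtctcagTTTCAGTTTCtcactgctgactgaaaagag
Ifit3 (chr19:34583353-34583436, plus strand): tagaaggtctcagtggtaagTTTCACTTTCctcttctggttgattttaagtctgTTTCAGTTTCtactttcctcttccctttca
Isg15 (chr4:156200855-156200916, minus strand): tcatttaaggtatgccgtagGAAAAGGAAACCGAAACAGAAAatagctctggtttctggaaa
Stat2 (chr10:128270256-128270305, plus strand): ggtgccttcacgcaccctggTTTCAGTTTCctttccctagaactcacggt
Bst2 (chr8:71537567-71537622, minus strand): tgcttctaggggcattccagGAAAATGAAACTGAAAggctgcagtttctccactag
Trim30a (chr7:104465200-104465249, minus strand): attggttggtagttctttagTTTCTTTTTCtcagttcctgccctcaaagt
Gbp7 (chr3:142530263-142530312, plus strand): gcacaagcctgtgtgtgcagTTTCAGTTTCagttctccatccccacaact
Oas1a (chr5:120907526-120907565, minus strand): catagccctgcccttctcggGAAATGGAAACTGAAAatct
Oas1g (chr5:120887614-120887651, minus strand): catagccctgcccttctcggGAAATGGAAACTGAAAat

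The Ifit1 and Ifit3 stretches each hold 2 separate matches, which lie 104 and 85 bases before the start of Ifit1 and 156 and 122 bases before the start of Ifit3. In Isg15 there are 3 matches that overlap one another, the farthest 78 bases and the nearest 66 bases before the start. Those of Bst2, Oas1a and Oas1g are overlapping pairs. The Oas1a and Oas1g stretches read alike over their shared length. Their transcripts are alike too, and 57.6% of the 50-base words of Oas1a exons and 45.7% of those of Oas1g occur in other genes. Reads from such words are not unique, so the counts of this pair are uncertain. The interferon-gamma element GAS was searched as TTCNNNGAA, which reads the same on both strands, and was found in 5 of 26 member promoters (19.2%) and 9.55% of all promoters in the table. A match describes letters in a window and not binding. Promoters of Mx1, Mx2, Oas1b, Oas2, Usp18, Dhx58, Ifi27, Ifi27l2a, Rtp4 and Zbp1 were not in the table.

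The members were expressed at resting levels that differed widely from gene to gene. Divided by exon length (GENCODE vM21), the mean over the 6 libraries was highest for Lgals3bp, a secreted glycoprotein, at 124 CPM per kb. Bst2 (tetherin, which holds budding viruses at the membrane) followed at 87.6 CPM per kb and Isg15 (a ubiquitin-like protein joined to other proteins) at 55.3 CPM per kb. Then came Ifi27l2a at 20.0, Ifi35 at 15.6, Gbp2 at 15.5, Stat2 at 12.3 and Ifit1 at 9.75 CPM per kb, and neighbours in this order overlapped in their library values. At the low end stood Oas1g at 0.561, Mx1 at 0.218 and Oas3 at 0.169 CPM per kb. The interferon genes themselves were close to absent: of 19 rows for type I, II and III interferons, 16 had no count in any library, and the others never exceeded 3 counts in a library.

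**Figure D1:**
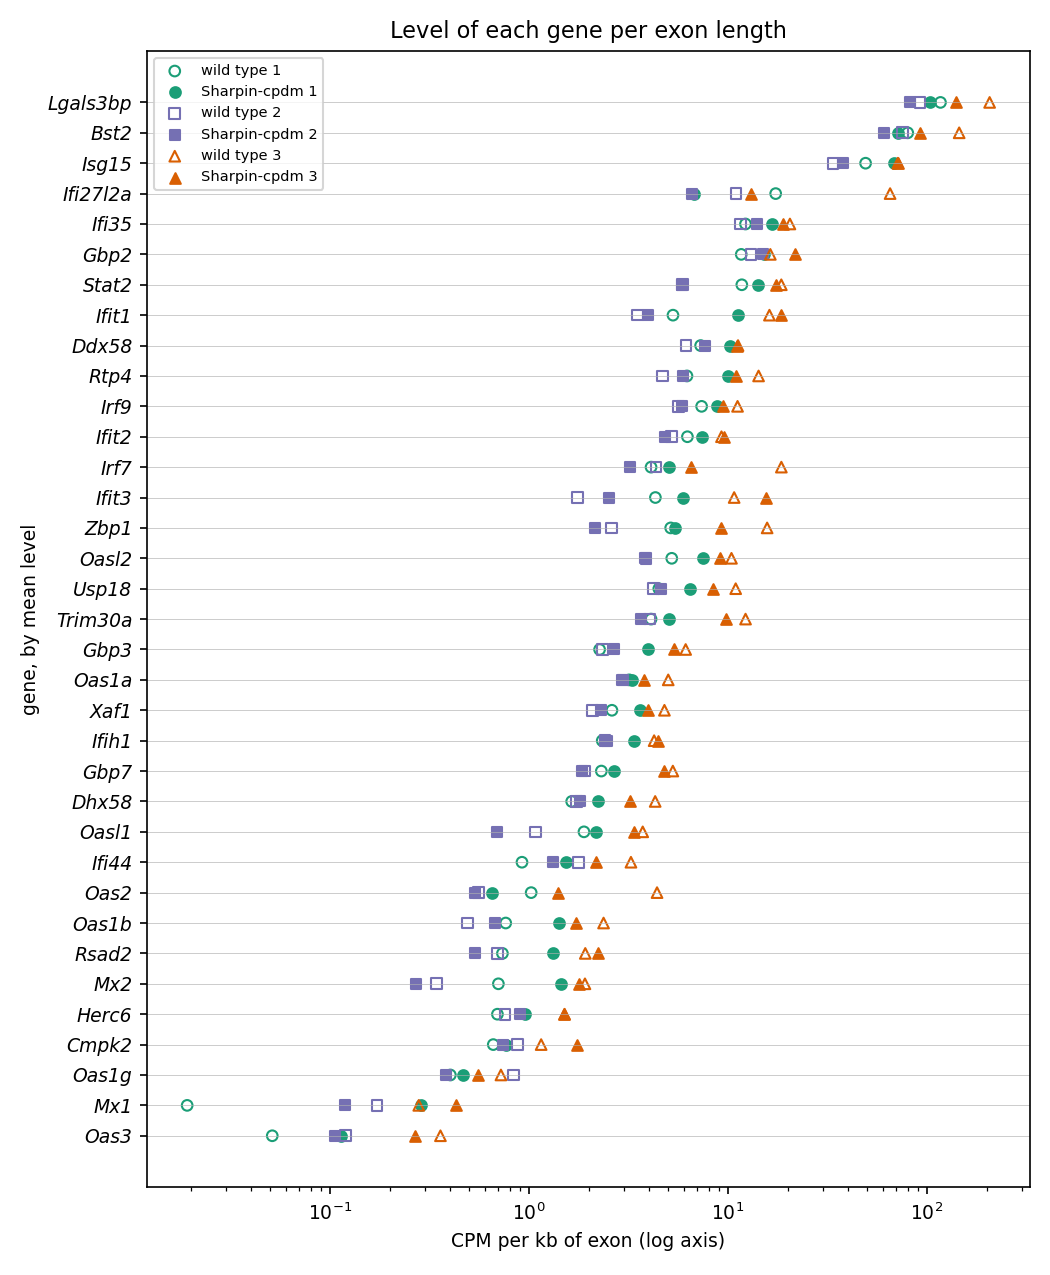
Level of each member in CPM per kb of exon on a log axis, 1 point per library, with open symbols for wild type and filled symbols for Sharpin-cpdm. Lgals3bp, Bst2 and Isg15 lie at the top, with means of 124, 87.6 and 55.3, and Mx1 and Oas3 at the bottom, with means of 0.218 and 0.169.

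The largest and most general difference among the members was between library numbers and not between genotypes. In both genotypes the libraries numbered 3 stood highest for 34 of 35 members, against 25.5% of all tested genes. Oas1g was the exception, with its highest value in wild-type library 2. In an edgeR quasi-likelihood test with genotype and number as terms, 32 of 35 members were higher in the libraries numbered 3 than in those numbered 2, against 19.2% of tested genes called in that direction, and 0 were lower, against 19.6%. Ifi44, Mx1 and Oas1g were not called. The median log2 difference of the members was 1.20 (range 0.07 to 2.61), and that of all tested genes was 0.01, with quartiles of -0.25 and 0.29.

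The other contrasts of number had fewer calls. Against the libraries numbered 1, those numbered 3 were higher for 16 of 35 members (45.7%), against 6.64% of tested genes, and lower for 0, against 4.57%. The median log2 difference was 0.82. The libraries numbered 2 were lower than those numbered 1 for 10 members (28.6%), against 10.6% of tested genes, and higher for 0, against 11.3%. These 10 were Ifit1, Ifit2, Ifit3, Isg15, Mx2, Oasl1, Oasl2, Irf9, Stat2 and Zbp1. A test of any difference between the 3 numbers called 32 members, all but Mx1, Oas1a and Oas1g, and 37.2% of tested genes.

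Counts from these contrasts rest on single libraries in part. Leaving out 1 library leaves its number with a lone library, which is then assumed to vary like the rest. In the runs that follow with fewer members called, fewer of all tested genes were called too. The exception was number 2 below number 1 without Sharpin-cpdm 1. Apart from that exception, the drops were thus not particular to the members. Members higher in number 3 than in number 2 came to 22 without Sharpin-cpdm 2, 24 without wild-type 3 and 19 without wild-type 2. Members differing between any numbers came to 21 without Sharpin-cpdm 2, 19 without wild-type 2 and 18 without wild-type 3. For number 3 above number 1, the 16 calls became 1 without wild-type 3, 7 without wild-type 1 and 32 without Sharpin-cpdm 1. For number 2 below number 1, the 10 calls became 6 without Sharpin-cpdm 1, 2 without Sharpin-cpdm 2, 2 without wild-type 2 and 17 without wild-type 1. In every one of these left-out runs 0 members were lower in number 3 than in number 2 or 1.

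**Figure D2:**
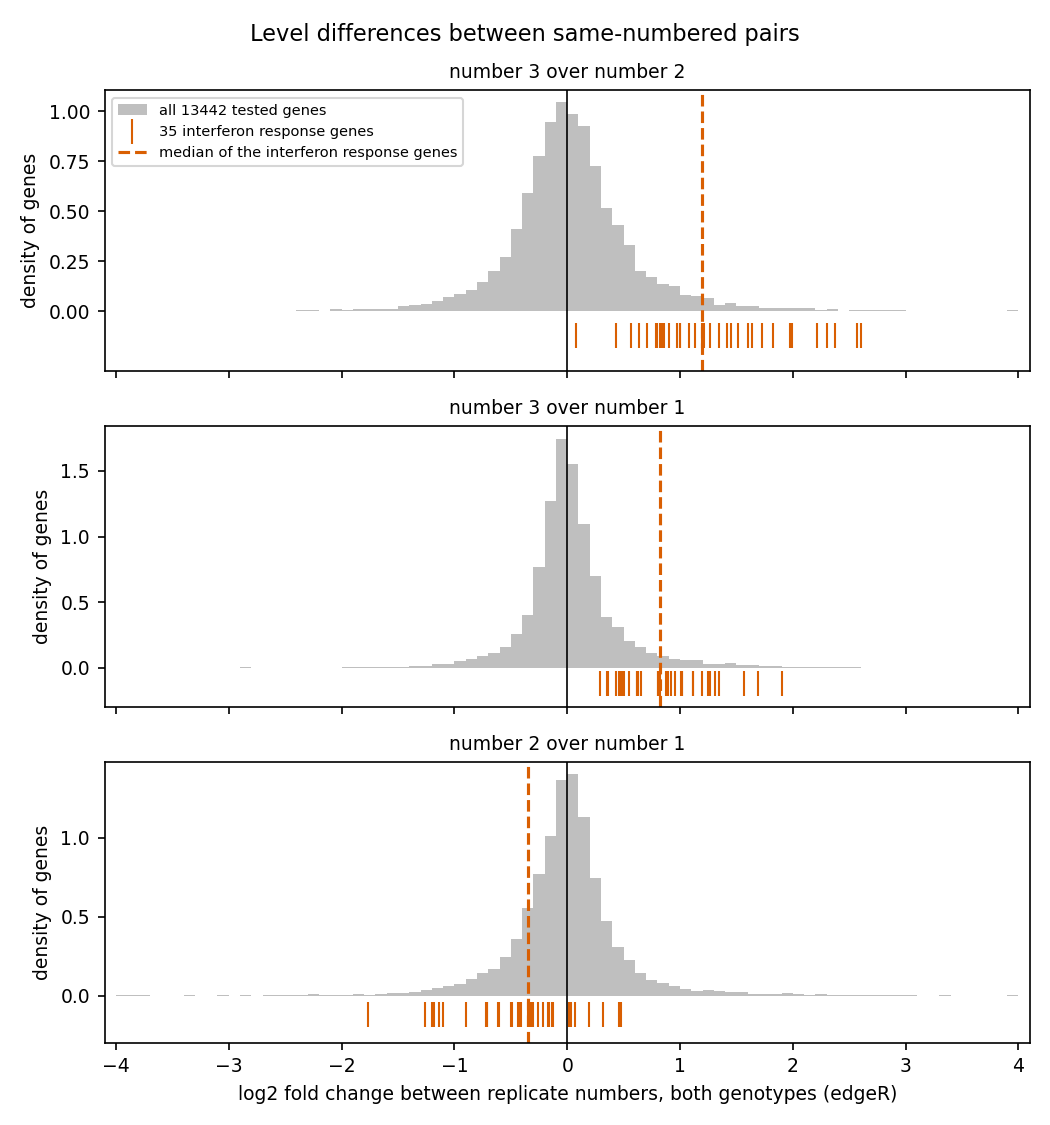
Log2 fold changes between library numbers (x axis), with genotype in the model: grey bars give the density of all 13442 tested genes, orange ticks the 35 members and the dashed line their median. Every member lies above 0 for number 3 over number 2 (0.07 to 2.61, median 1.20) and for number 3 over number 1 (median 0.82); values beyond the axis are drawn in its end bars.

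The number pattern was present in each genotype taken alone. Summed over the 35 members, Sharpin-cpdm libraries 1, 2 and 3 held 1034, 711 and 1367 CPM, and wild-type libraries 1, 2 and 3 held 913, 739 and 1754 CPM. Wild-type 3 had the highest value of all 6 libraries for 26 members, Sharpin-cpdm 3 for 8 and wild-type 2 for 1. The lowest value was in Sharpin-cpdm 2 for 15 members, wild-type 2 for 11 and wild-type 1 for 9. All 35 members had the order number 2, then 1, then 3 from low to high within Sharpin-cpdm, against 26.8% of tested genes, and 24 had it within wild type, against 24.1%. The 11 other members had wild-type 1 as their lowest wild-type library. This order was chosen for counting after the values were seen.

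**Figure D3:**
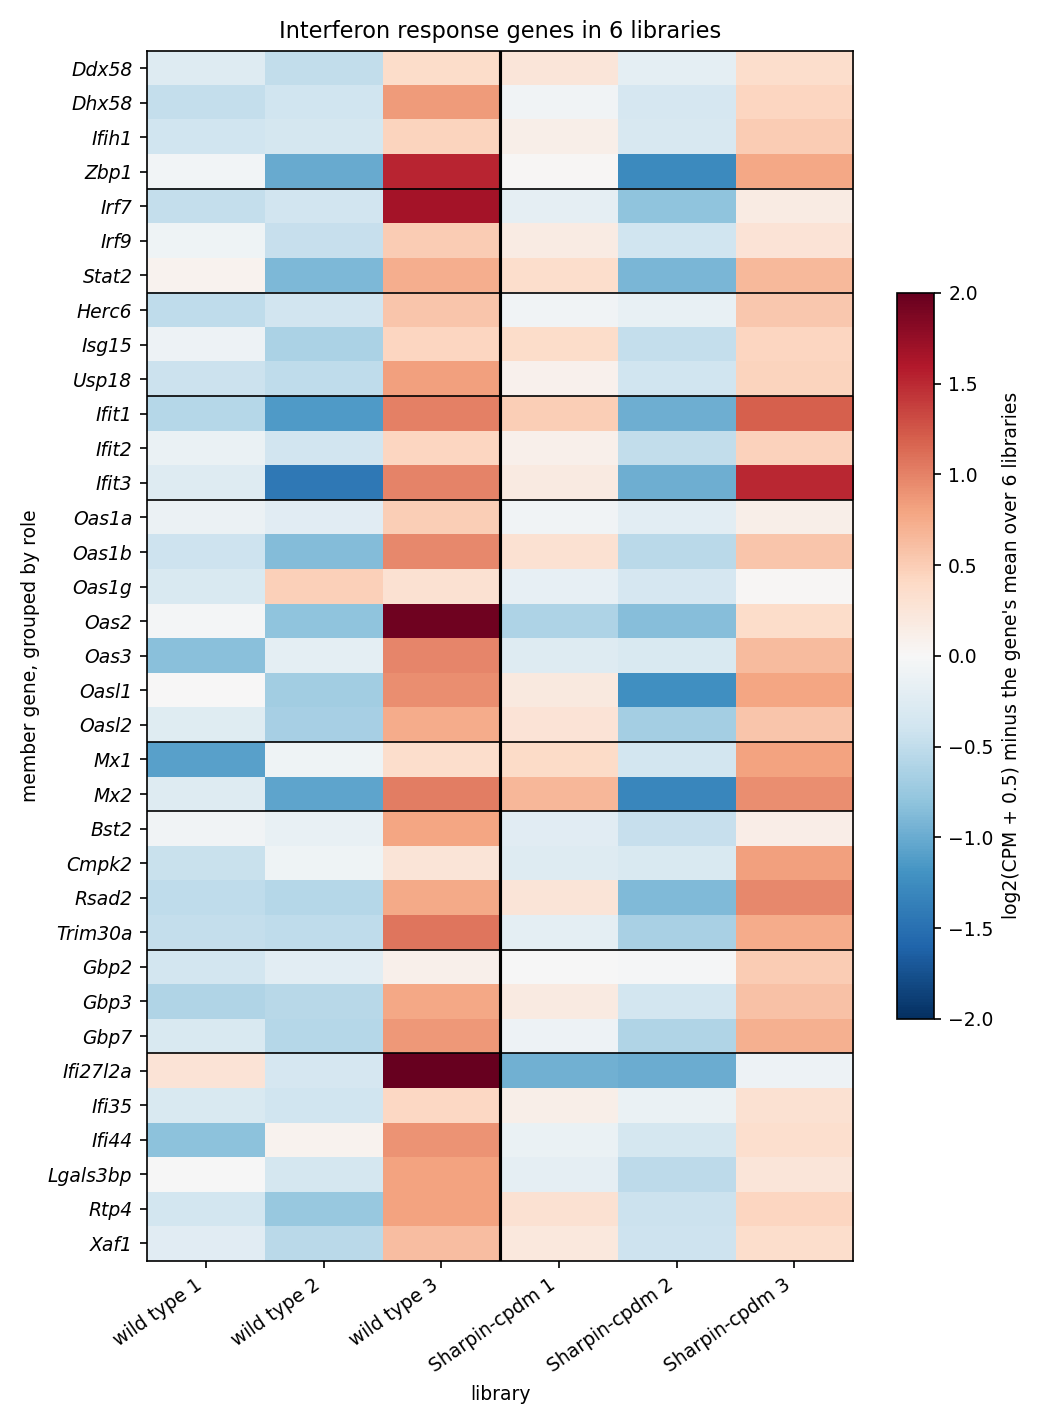
Members (rows) in the 6 libraries (columns), coloured by log2(CPM + 0.5) minus the gene's mean, with the colour scale ending at ±2. Both libraries numbered 3 are above the mean for nearly all members and both numbered 2 below it, and Ifi27l2a in wild-type 3 is beyond the end of the scale.

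Partitioning the sum of squares of log2 CPM gave the same picture as a description. Library number, with 2 degrees of freedom, took a median of 86.0% of a member's variation (range 30.6% to 98.5%), and genotype took a median of 3.96%. Over all tested genes these medians were 72.9% and 8.26%. Stat2 and Gbp7 had the highest shares for number, at 98.5% and 98.4%. Ifi27l2a was divided most evenly, with 47.7% for number and 43.4% for genotype.

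Genotype alone gave no call among the members. The edgeR quasi-likelihood test without a term for number called 0 of 35 members higher and 0 lower, and 0 of all 13442 genes. At an unadjusted p under 0.05 it gave 1 member (Ifi27l2a) and 307 genes (2.28%), and DESeq2 without a term for number called 0 members and 10 genes. Sharpin itself was not called by this edgeR test, at a log2 fold change of -1.49 ± 0.14 (SE, adjusted p = 0.272). The lack of calls in that test therefore says little about the members. The median log2 fold change of the members, Sharpin-cpdm over wild type, was 0.06 (range -1.82 to 0.82), and that of all genes was -0.00. This median was 0.52 without wild-type 3 and -0.24 without Sharpin-cpdm 3. For 0 of 35 members were the genotype groups free of overlap, against 5.91% of tested genes.

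With the library number as a block, 0 members were higher in Sharpin-cpdm and 1, Ifi27l2a, was lower. Over all tested genes 0.394% were called higher and 2.11% lower, or 2.51% in all, so the share of members called (2.86%) was close to the background. The next member by p was Gbp2, at an adjusted p of 0.0614 in the same edgeR fit. In the blocked fit 21 members had a positive and 14 a negative log2 fold change.

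How the pairs differed is best seen from the log2 ratio of Sharpin-cpdm to wild type within each pair (prior count 2). In pair 1 the ratio was above 0 for 31 of 35 members, in pair 2 for 16 and in pair 3 for 8, against 50.1%, 51.3% and 49.6% of all tested genes. The median ratio of the members was 0.43 in pair 1, -0.02 in pair 2 and -0.20 in pair 3, while that of all tested genes lay between -0.00 and 0.01 in each pair. The members were thus mostly higher in the Sharpin-cpdm library of pair 1, evenly split in pair 2 and mostly lower in the Sharpin-cpdm library of pair 3. For 32 members the ratio was higher in pair 1 than in pair 3, against 49.8% of tested genes, and the exceptions were Ifit3, Cmpk2 and Gbp2. For 23 members (65.7%) it was above 0 in pair 1 and below 0 in pair 3, against 20.7% of tested genes.

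Direction was the same in all 3 pairs for 8 members. Ifit1, Ifit3, Ifih1 and Gbp2 had a positive ratio in each pair (4 of 35, or 11.4%, against 20.8% of tested genes), and Oas2, Bst2, Ifi27l2a and Lgals3bp a negative one (11.4%, against 20.3%). Each pair holds 1 library of each genotype, so the change of the ratio from pair to pair has no replicate and was not tested. Seen from the other side, the median log2 difference of the members between libraries 3 and 2 was 1.36 within wild type and 0.97 within Sharpin-cpdm.

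**Figure D4:**
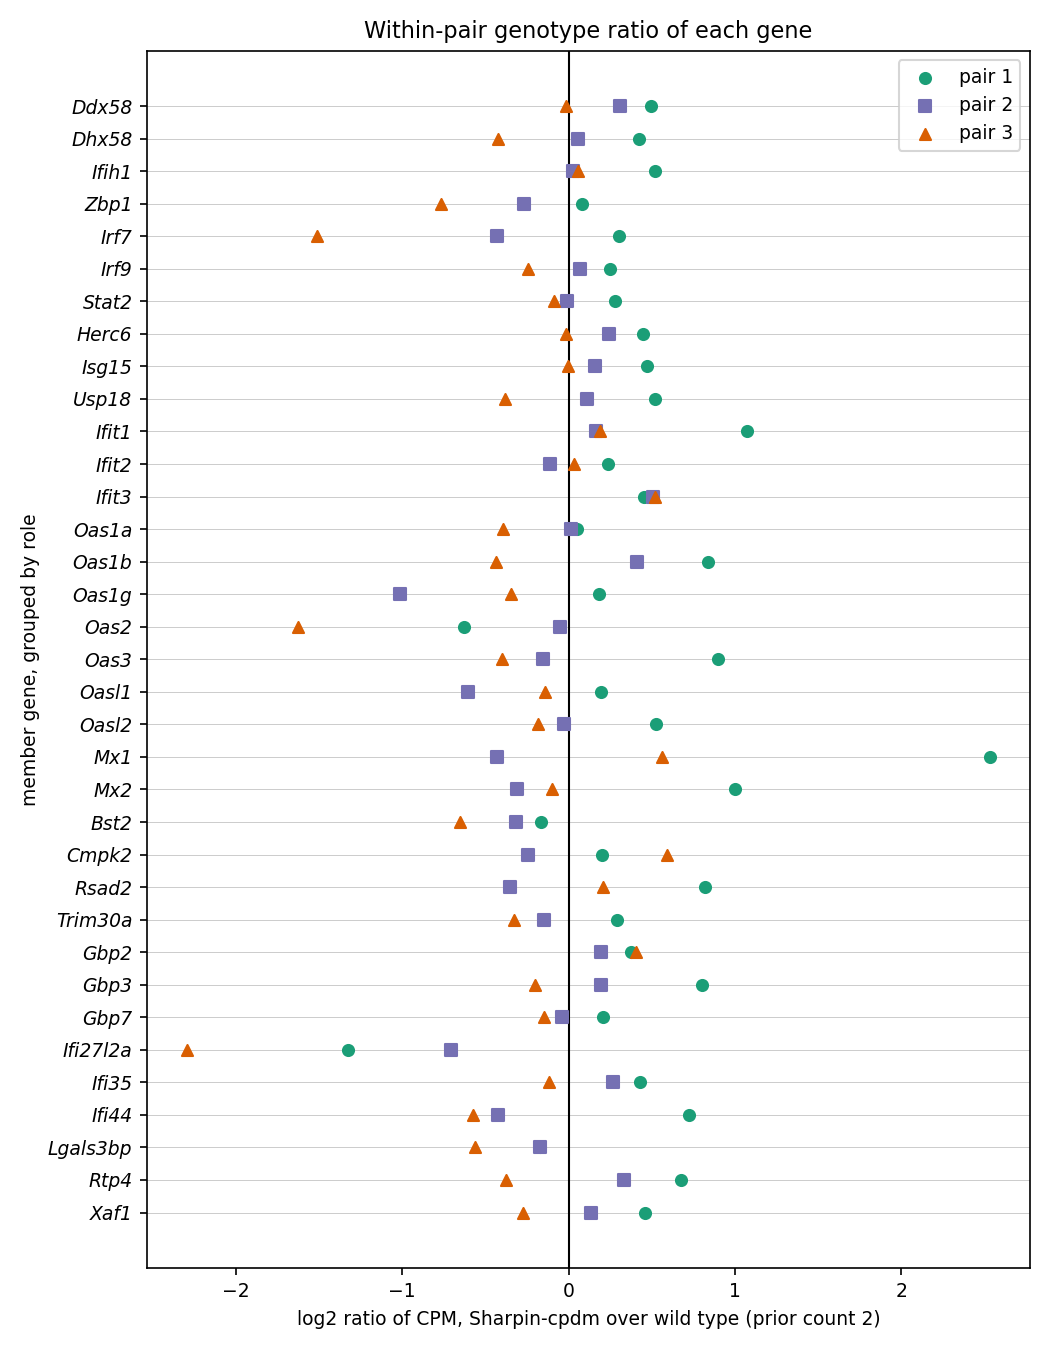
Log2 ratio of Sharpin-cpdm to wild type for each member in pairs 1, 2 and 3 (prior count 2), with 1 point per pair. The points of pair 1 lie mostly above 0 (31 of 35) and those of pair 3 mostly below (27 of 35); the Mx1 point of pair 1, at 2.53, compares 15 counts with 1.

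Among the sensors, Zbp1, which detects left-handed nucleic acid and can start necroptosis, varied most. It was at 19.2, 7.55 and 32.6 CPM in Sharpin-cpdm libraries 1, 2 and 3 and at 18.2, 9.14 and 55.5 CPM in wild-type libraries 1, 2 and 3. Both libraries numbered 2 were low and both numbered 3 high, and the genotypes overlapped. Between numbers 3 and 2 the log2 difference was 2.38 ± 0.21 (SE, adjusted p = 0.000479, edgeR). Its ratios in pairs 1, 2 and 3 were 0.08, -0.27 and -0.76.

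Ddx58 (RIG-I, a sensor of viral RNA) had a narrower range. Its values were 72.5, 53.9 and 78.3 CPM in Sharpin-cpdm and 51.4, 43.4 and 79.2 CPM in wild type, in the order of the numbers. The log2 difference between numbers 3 and 2 was 0.71 ± 0.12 (SE, adjusted p = 0.00519, edgeR). Its ratio was 0.50 in pair 1, 0.31 in pair 2 and -0.02 in pair 3. The other RNA sensors, Ifih1 (MDA5) and Dhx58 (LGP2), were called higher in number 3 as well, so that 4 of 4 sensors were, with a median of 0.96. Dhx58 lost its call without Sharpin-cpdm 2, wild-type 2 or wild-type 3.

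The transcription factors of the response, Stat2, Irf9 and Irf7, were all higher in number 3 than in number 2. Stat2 was at 84.4, 34.9 and 103 CPM in Sharpin-cpdm and at 69.6, 35.1 and 110 CPM in wild type. Its libraries agreed within each number almost regardless of genotype, and the pair ratios of 0.28, -0.01 and -0.09 were small beside a log2 difference of 1.61 ± 0.10 between numbers 3 and 2 (SE, adjusted p = 0.000204, edgeR). Irf9, the DNA-binding partner of Stat2, was at 47.3, 31.8 and 50.8 CPM in Sharpin-cpdm and at 39.7, 30.3 and 60.2 CPM in wild type. Its log2 difference between numbers 3 and 2 was 0.84 ± 0.12 (SE, adjusted p = 0.00277, edgeR), and its genotype difference was -0.00 ± 0.29.

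Irf7, the factor that amplifies interferon production, did not follow Stat2. Wild-type library 3 stood far above the other 5, at 70.0 CPM, where wild-type 1 and 2 were at 15.5 and 16.4 CPM and Sharpin-cpdm libraries 1, 2 and 3 at 19.2, 12.2 and 24.5 CPM. The log2 difference between numbers 3 and 2 was 1.64 ± 0.38 (SE, adjusted p = 0.0163, edgeR) and was not called without wild-type 3, wild-type 2 or Sharpin-cpdm 2. Its ratios were 0.30, -0.43 and -1.51 in pairs 1, 2 and 3. In the blocked genotype fit the log2 fold change was -0.65 ± 0.32 (SE, adjusted p = 0.364), and it became -1.13 (adjusted p = 0.0194) when pair 1 was left out. Exons of Irf7 and Irf9 overlap those of Phrf1 and Rnf31, which are also counted, and the sources used here do not give the strand setting of the counting.

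The IFIT genes, which encode proteins that bind foreign RNA and block its translation, had the largest contrast between numbers of any family (3 of 3 called, median 2.21). Ifit3 was at 10.4, 4.41 and 27.0 CPM in Sharpin-cpdm and at 7.53, 3.07 and 18.7 CPM in wild type. Its difference between numbers 3 and 2, 2.61 ± 0.13 on the log2 scale (SE, adjusted p = 0.000151, edgeR), was the largest of the 35. The ratio was nearly the same in each pair, at 0.45, 0.51 and 0.52, unlike most members, and the blocked genotype fit gave 0.50 ± 0.10 (SE, adjusted p = 0.0676), short of the threshold. Of its 50-base words 51.2% occur elsewhere, mainly in Ifit3b, which has no row.

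Ifit1 differed between genotypes mainly in pair 1. It was at 29.7, 10.5 and 48.9 CPM in Sharpin-cpdm and at 14.1, 9.33 and 42.9 CPM in wild type, with ratios of 1.07, 0.16 and 0.19. Between numbers 3 and 2 it differed by 2.21 ± 0.23 on the log2 scale (SE, adjusted p = 0.000867, edgeR), and the blocked genotype difference was 0.48 ± 0.18 (SE, adjusted p = 0.253). Ifit2 was flatter, at 28.9, 18.9 and 37.3 CPM in Sharpin-cpdm and 24.6, 20.5 and 36.4 CPM in wild type. Its ratios were 0.24, -0.11 and 0.03, and its log2 difference between numbers 3 and 2 was 0.90 ± 0.10 (SE, adjusted p = 0.00121, edgeR).

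The OAS family includes synthetases that make 2-5A, the activator of RNase L, and related proteins. GENCODE vM21 lists Oas1b as a polymorphic pseudogene and not as protein coding. Of 7 members 6 were called higher in number 3 than in number 2, with a median of 1.45. This count was 3 without Sharpin-cpdm 2, wild-type 2 or wild-type 3, and 4 without Sharpin-cpdm 3 or by DESeq2. Oasl2 was at 48.0, 24.3 and 58.4 CPM in Sharpin-cpdm and at 33.3, 24.7 and 66.4 CPM in wild type, and Oasl1 at 5.66, 1.79 and 8.79 CPM and at 4.93, 2.81 and 9.72 CPM. Both were low in number 2 and high in number 3 in each genotype, by log2 differences of 1.35 ± 0.16 for Oasl2 (SE, adjusted p = 0.00159) and 2.00 ± 0.23 for Oasl1 (SE, adjusted p = 0.00131, edgeR for both).

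Oas2 resembled Irf7 in that wild-type library 3 stood apart. It was at 4.56, 2.48 and 19.6 CPM in wild type and at 2.90, 2.39 and 6.25 CPM in Sharpin-cpdm. The ratios were -0.63, -0.05 and -1.63, and the blocked genotype difference was -1.01 ± 0.30 (SE, adjusted p = 0.160, edgeR). Between numbers 3 and 2 the log2 difference was 2.31 ± 0.36 (SE, adjusted p = 0.00401, edgeR). Oas1g, near the detection floor at 0.897 to 1.30 CPM in Sharpin-cpdm and 0.942, 1.96 and 1.69 CPM in wild type, differed by 0.07 ± 0.38 (SE, adjusted p = 0.893). Its ratio in pair 2, -1.02, rests on few counts and on shared sequence.

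Dynamin-like GTPases (Mx1 and Mx2) and guanylate-binding proteins (Gbp2, Gbp3 and Gbp7) belong to families that act against viruses and other intracellular pathogens. GENCODE vM21 lists Mx2 as a polymorphic pseudogene and not as protein coding. Mx2 was at 5.22, 0.972 and 6.45 CPM in Sharpin-cpdm and at 2.54, 1.24 and 6.91 CPM in wild type. It was 2.57 ± 0.37 higher on the log2 scale in number 3 than in number 2 (SE, adjusted p = 0.00302, edgeR), and its pair ratios were 1.00, -0.31 and -0.10. Mx1 was counted 15 times in Sharpin-cpdm 1 and 1 time in wild-type 1, and no library exceeded 1.63 CPM. Gbp7 was at 15.0, 10.4 and 26.8 CPM in Sharpin-cpdm and at 13.0, 10.7 and 29.7 CPM in wild type, with ratios of 0.21, -0.04 and -0.15. Its log2 difference between numbers 3 and 2 was 1.42 ± 0.12 (SE, adjusted p = 0.000474, edgeR).

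Gbp2, named here after its values were seen, was the member with the steadiest positive ratio apart from Ifit3. It was at 38.1, 37.5 and 54.5 CPM in Sharpin-cpdm and at 29.3, 32.8 and 41.1 CPM in wild type, so each Sharpin-cpdm library was above its own partner while the groups overlapped. The ratios were 0.37, 0.19 and 0.41, and the blocked log2 fold change was 0.33 ± 0.06 (SE, adjusted p = 0.0614, edgeR). Its log2 difference between numbers 3 and 2, at 0.43, was the smallest called, and was not called without Sharpin-cpdm 2 or Sharpin-cpdm 3. Gbp2 is known to respond strongly to interferon gamma as well as to type I interferon.

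Isg15 and its partners Usp18 (which removes Isg15 and restrains the receptor) and Herc6 (which attaches it) were each higher in number 3 than in number 2 (3 of 3, median 1.00). Without wild-type 2 only Isg15 of the 3 was called, and Herc6 also lost its call without Sharpin-cpdm 2 or wild-type 3. Isg15 was at 51.6, 28.5 and 53.9 CPM in Sharpin-cpdm and at 37.2, 25.5 and 54.0 CPM in wild type. The libraries numbered 3 had equal levels, and the ratios were 0.47, 0.16 and -0.00. Between numbers 3 and 2 the log2 difference was 1.00 ± 0.12 (SE, adjusted p = 0.00136, edgeR), and between 2 and 1 it was -0.71 ± 0.12 (SE, adjusted p = 0.0111, edgeR).

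Of the remaining antiviral effectors, Trim30a, an inhibitor of signalling by pattern receptors, was at 20.7, 15.0 and 40.2 CPM in Sharpin-cpdm and at 16.9, 16.6 and 50.4 CPM in wild type. Its log2 difference between numbers 3 and 2 was 1.52 ± 0.15 (SE, adjusted p = 0.000726, edgeR). Bst2 was at 64.6, 54.7 and 83.5 CPM in Sharpin-cpdm and at 72.3, 68.3 and 131 CPM in wild type. It was lower in the Sharpin-cpdm library of every pair, with ratios of -0.16, -0.32 and -0.65, but the blocked test gave -0.39 ± 0.09 (SE, adjusted p = 0.105, edgeR). Without pair 1 it gave -0.50 (adjusted p = 0.0143). With Rsad2 (viperin) and Cmpk2, 4 of 4 effectors were called higher in number 3 than in number 2, with a median of 1.17. Cmpk2 was not called by DESeq2, or without Sharpin-cpdm 2, Sharpin-cpdm 3 or wild-type 2.

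Lgals3bp, the most abundant member, was at 296, 233 and 398 CPM in Sharpin-cpdm and at 333, 263 and 588 CPM in wild type. It had negative ratios in all pairs, at -0.17, -0.17 and -0.56, and a blocked log2 fold change of -0.30 ± 0.08 (SE, adjusted p = 0.139, edgeR). The log2 difference between numbers 3 and 2 was 0.97 ± 0.10 (SE, adjusted p = 0.000968, edgeR). Of the 6 other interferon-induced members, Lgals3bp among them, 5 were called higher in number 3 than in number 2 (median 0.99), and 1, Lgals3bp, was without wild-type 2. The row named Ifi27l1 was at 128.9, 114.4 and 137.4 CPM in Sharpin-cpdm and at 131.6, 112.4 and 171.9 CPM in wild type.

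Ifi27l2a was the only member called by genotype with the block when all libraries were kept, and it was not called without the block. That is 1 of 35 members (2.86%), near the 2.51% of all tested genes called with the block. It belongs to the family of small mitochondrial and membrane proteins of which Ifi27 is the founding gene, and lies at chr12:103442167-103443680 on the minus strand (GRCm38), beside Ifi27. It was at 8.04, 5.09 and 30.2 CPM in wild-type libraries 1, 2 and 3 and at 3.12, 3.07 and 6.06 CPM in Sharpin-cpdm libraries 1, 2 and 3. Within every pair the Sharpin-cpdm library was lower, but the groups overlapped, since Sharpin-cpdm 3 was above wild-type 2.

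The log2 ratios were -1.33, -0.71 and -2.29 in pairs 1, 2 and 3, and rest on 43 against 111, 41 against 78 and 93 against 429 counts. Their 95% intervals, which cover counting error only, ran from -1.91 to -0.85, from -1.31 to -0.17 and from -2.66 to -1.99. The interval of pair 3 did not overlap those of the others. In the edgeR fit with the block, Ifi27l2a fell by 1.64 ± 0.29 on the log2 scale in Sharpin-cpdm (SE, adjusted p = 0.0451), and without the block the value was -1.82 ± 0.71 (SE, adjusted p = 1.00). Without pair 3 the blocked value was -1.06 (adjusted p = 0.191), and without wild-type 3 the unblocked value was -0.68. It was called by DESeq2 with the block, at -1.51 (adjusted p = 0.000254).

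Upstream of the members, receptors and kinases had 0 genotype calls among 9 genes and 5 calls by number. Of these, 3 were higher in number 3 than in number 2 and 1 was lower. Over all tested genes 37.2% were called by number, and 19.2% were higher and 19.6% lower in number 3 than in number 2. Ifnar2, a chain of the type I receptor, was higher, at 63.5, 54.1 and 72.7 CPM in Sharpin-cpdm and 67.7, 72.0 and 98.2 CPM in wild type (log2 difference 0.44 ± 0.09 SE, adjusted p = 0.0120, edgeR). Il10rb, a chain of the type III receptor, was not (-0.15 ± 0.10 SE, adjusted p = 0.286). Of the 9 other transcription genes, 5 were higher and 1 was lower in number 3 than in number 2, against those same 19.2% and 19.6%.

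Irf8, a factor of myeloid cells, was the only one of those 9 called by genotype with the block, at -0.81 ± 0.14 (SE, adjusted p = 0.0442, edgeR). It was at 2.03, 4.86 and 4.56 CPM in Sharpin-cpdm and 3.48, 8.61 and 8.10 CPM in wild type. Among 15 tested genes of nucleic acid sensing 0 were called by genotype. In number 3 than in number 2, 6 were higher and 1 lower, against 19.2% and 19.6% of all tested genes. Tmem173 (STING, the adaptor of DNA sensing) was higher by 0.31 ± 0.06 (SE, adjusted p = 0.00735, edgeR) and Tbk1, the kinase it recruits, was not called (0.09 ± 0.07 SE, adjusted p = 0.348). Of 18 negative regulators 0 were called by genotype. In number 3 than in number 2, 6 were higher and 4 lower, against the same 19.2% and 19.6%. Pias3 and Tnfaip3, which had the smallest p in the genotype fit without the block, had blocked log2 fold changes of -0.24 ± 0.06 and 0.28 ± 0.11 (SE, adjusted p = 0.104 and 0.270, edgeR). In the blocked fit the smallest adjusted p of the list was that of Socs3, at 0.0882 (-0.31 ± 0.07, SE).

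A wider list of interferon-stimulated genes showed the number pattern too. It holds 70 tested rows beside the 35, with Ifi27l1 among them. Of these, 52 were higher and 2 lower in number 3 than in number 2, against 19.2% and 19.6% of tested genes. Their median log2 difference was 0.75. The summed level of all 78 rows was 2616, 2168 and 3273 CPM in Sharpin-cpdm libraries 1, 2 and 3 and 2559, 2231 and 4046 CPM in wild-type libraries 1, 2 and 3. With the block 1 of the 70 was higher in Sharpin-cpdm and 4 were lower, against 0.394% and 2.11% of tested genes. Serpina3g, a protease inhibitor, rose by 1.13 ± 0.16 on the log2 scale (SE, adjusted p = 0.0244, edgeR), from 5.58, 4.63 and 14.4 CPM in wild type to 13.2, 13.2 and 24.6 CPM in Sharpin-cpdm. Ly6a (Sca-1) fell by 0.85 ± 0.08 (SE, adjusted p = 0.00952), Gbp9 by 0.78 ± 0.14 (SE, adjusted p = 0.0450), Fam46a by 0.60 ± 0.09 (SE, adjusted p = 0.0279) and Slfn5 by 0.57 ± 0.06 (SE, adjusted p = 0.0110, edgeR for all).

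**Figure D5:**
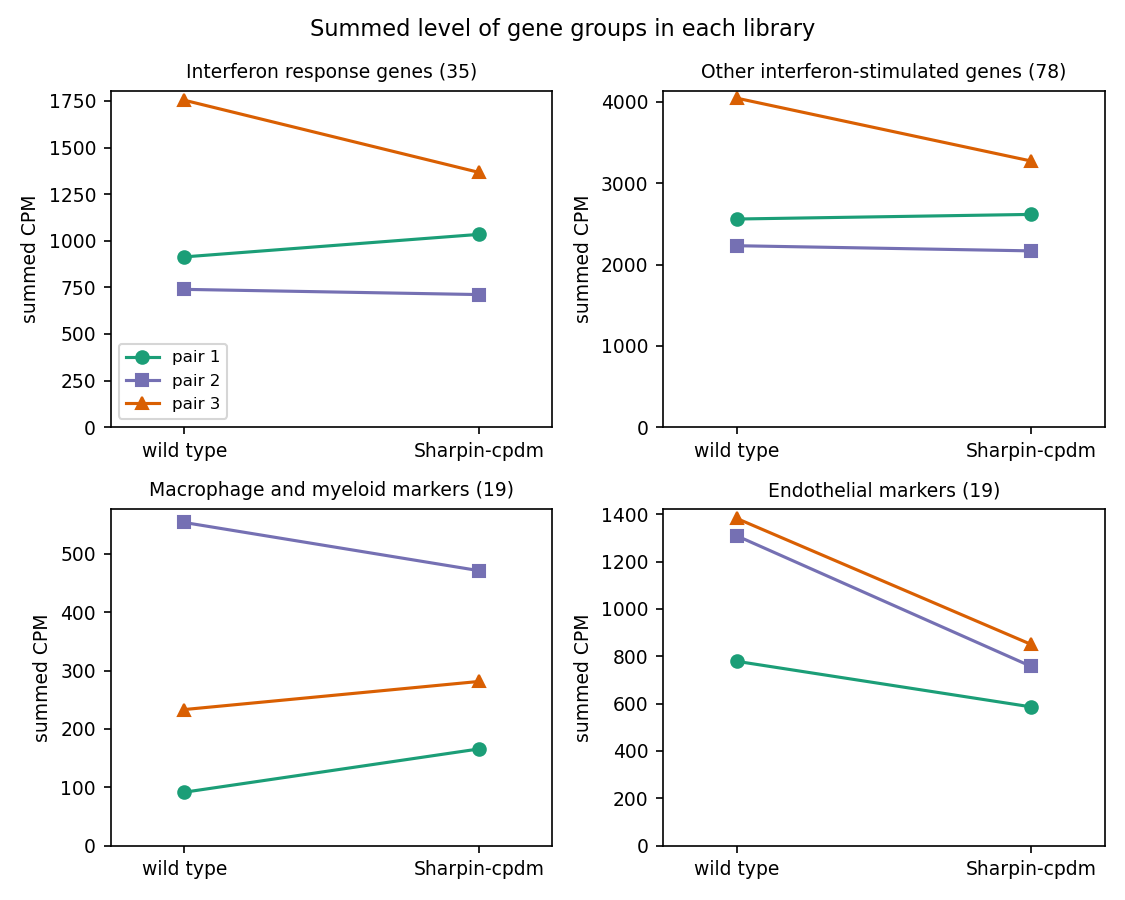
Summed CPM (y axis) of the 35 members, 78 other interferon-stimulated gene rows (Ifi27l1 included), 19 macrophage and myeloid and 19 endothelial marker rows in each library, with a line joining the libraries of each pair. The members are highest in number 3 (1367 and 1754 CPM) and the macrophage markers in number 2 (471 and 554 CPM).

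Markers of other cell types also differed between numbers and genotypes, and in bulk RNA fewer cells of a type and less RNA per cell cannot be told apart. Macrophage and myeloid markers, none of which was at 0, summed to 166, 471 and 281 CPM in Sharpin-cpdm libraries 1, 2 and 3 and to 91.6, 554 and 233 CPM in wild type. All 15 tested were higher in number 2 than in number 1, against 11.3% of tested genes. Between numbers 3 and 2, 9 were lower in number 3 and 0 higher, against 19.6% and 19.2% of tested genes. Both of these are opposite to the direction of the members. Between numbers 3 and 1, 7 were higher in number 3 and 0 lower, against 6.64% and 4.57%, which is the direction of the members. Endothelial markers, again none at 0, summed to 586, 758 and 850 CPM in Sharpin-cpdm and to 779, 1309 and 1383 CPM in wild type. Of these 19, 7 were higher and 2 lower in number 3 than in number 2, against 19.2% and 19.6% of tested genes. In number 3 than in number 1, 15 were higher and 0 lower, against 6.64% and 4.57%. In number 2 than in number 1, 13 were higher and 0 lower, against 11.3% and 10.6%. With the block 14 of 19 were lower in Sharpin-cpdm, against 2.11% of tested genes. That is the direction of Ifi27l2a, and the median log2 fold change of the 19 was -0.78. Their part in the results on the members was not tested.

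Some fibroblast markers differed as well. Of 14, 6 were higher and 2 lower in number 3 than in number 2, against 19.2% and 19.6% of tested genes. The median log2 difference of the 14 was 0.04. Dpt was higher by 2.21 ± 0.16, Pdgfra by 2.06 ± 0.11, Dcn by 1.51 ± 0.19 and Lum by 1.34 ± 0.08 on the log2 scale (SE, adjusted p = 0.00168 or less, edgeR). Col3a1 (0.88 ± 0.09 SE) and Pdgfrb (0.42 ± 0.06 SE) were higher too. These 6 went in the direction of the members, and Thy1 (-0.43 ± 0.08 SE) and Fn1 (-0.41 ± 0.08 SE) went the other way. With the block 4 were lower in Sharpin-cpdm, as Ifi27l2a was, against 2.11% of tested genes. Dpt fell by 1.27 ± 0.13, Dcn by 0.90 ± 0.15, Lum by 0.71 ± 0.07 and Fap by 0.35 ± 0.05 (SE, adjusted p between 0.00839 and 0.0402, edgeR). Their part was not tested.

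Of the lymphoid and plasmacytoid markers other than Bst2, the 13 genes had at most 6 counts in any library, and Siglech, Ccr9 and Klrd1 had none. Epithelial markers summed to between 185 and 614 CPM, with Csn2 and Wap at 0. Of 13 tested, 5 were lower and 0 higher in number 3 than in number 2, against 19.6% and 19.2% of tested genes. This is opposite to the members. With the block 0 of these epithelial markers were called by genotype, against 2.51% of tested genes. Mural markers summed to between 2341 and 6948 CPM, mostly Acta2, and this sum was highest in the libraries numbered 2. Of 9 mural markers 4 were lower and 2 higher in number 3 than in number 2, against 19.6% and 19.2% of tested genes. Abcc9 and Kcnj8 were the higher ones, by 1.45 ± 0.10 and 1.08 ± 0.22 (SE, adjusted p = 0.0105 for Kcnj8, edgeR). With the block 3 mural markers were lower in Sharpin-cpdm, in the direction of Ifi27l2a, and 0 were higher, against 2.11% and 0.394% of tested genes. These 3 were Abcc9 (-0.59 ± 0.08), Notch3 (-0.45 ± 0.07) and Mcam (-0.43 ± 0.08, SE, adjusted p between 0.0215 and 0.0473, edgeR). Adipocyte markers summed to between 49.8 and 152 CPM, with Lep and Retn at 0. Of 4 tested, 1, Fabp4, was lower in Sharpin-cpdm with the block (-0.93 ± 0.06 SE, adjusted p = 0.00486, edgeR) and 0 were higher, against the same 2.11% and 0.394%. The part of these in the results was not tested either.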

How the data were processed

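Per the labels' protocols, cells were isolated from mammary glands with collagenase and differential centrifugation, RNA came from cultures lysed in the plate, and TruSeq RNA v2 was used for library preparation. The submitters' processing notes name bcl2fastq 1.8.4, TopHat2 2.0.10, HTSeq 0.5.4p3 and mm10. The authors deposited whole-number counts of reads per gene symbol, 1 table per library. The 5 summary rows were left out; entries that were not unique made up between 42.5% and 45.1% of a table. Reads of near-identical genes are therefore missing.

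The tests used edgeR 4.0.16 and limma 3.58.1 under R 4.3.3: filterByExpr, TMM factors between 0.969 and 1.03, quasi-likelihood F-tests, two-sided, Benjamini-Hochberg adjustment over 13442 genes, threshold 0.05. CPM use TMM-scaled gene totals. DESeq2 1.42.0 was an alternative. The main genotype fit had no block. The number test had genotype and number as terms, with 2 residual degrees of freedom. Scripts were tested on simulated data.

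Deviations from group means correlated between same-numbered libraries at 0.457, 0.809 and 0.737 and between other combinations at -0.691 to 0.00676. A gene's deviations within a genotype cancel out, so the low values of other combinations follow in part from the high ones. The label numbers were treated as pairing the samples, on the evidence of these same values and not of the labels. The biological coefficient of variation was 0.217 without and 0.0718 with the block. Between replicates, chi-square per degree of freedom was 16.9 to 85.2, so none was a duplicate. An exact test of 3 against 3 cannot go below 0.1.

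Members and lists were chosen with earlier results of these data known. Values in full are given for members called by genotype, those with a pair ratio beyond 1 on the log2 scale at a mean of at least 1 CPM, the 10 with the smallest p by number and the 6 with the highest mean; from other lists, called genes or else the 2 with the smallest genotype p without the block. Alternatives were the block, RLE scaling, DESeq2, no filter and leaving out libraries or pairs. Gene positions and exon lengths are from GENCODE vM21 and promoters from RefSeq; the authors' annotation is not given in the sources used here.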

Additional observations from a re-analysis of the deposited data

How the results depend on the processing

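With the replicate block, or DESeq2 with it, 1 member was called lower by genotype in place of 0. Left-out libraries or pairs moved that count between 0 and 4: without pair 1 Irf7, Bst2, Ifi27l2a and Zbp1 (-0.63, adjusted p = 0.0242, edgeR) were called with the block, and without pair 3 none. The pairing changed no other genotype call among the members, and 0 were called higher in any setting. Over all genes the block gave 53 higher and 284 lower calls in place of 0. The median log2 fold change of the members ran from -0.24 to 0.52, members called by number from 18 to 33, number 3 over 2 from 19 to 34, number 3 over 1 from 1 to 32, number 2 below 1 from 2 to 17 and above it from 0 to 1. Genotype log2 fold changes of 15 named members, from near 0 up to -1.19 for Oas2 and -0.87 for Irf7, turned sign when a library was left out, with ranges of -0.13 to 1.35 for Ifit1, -0.18 to 0.34 for Ifit2, -0.40 to 1.40 for Ifit3, -0.19 to 1.17 for Mx2, -1.74 to 0.14 for Oas2, -0.64 to 0.50 for Oasl1, -0.20 to 0.59 for Oasl2, -1.21 to 0.22 for Irf7, -0.20 to 0.31 for Irf9, -0.27 to 0.51 for Stat2, -0.48 to 0.56 for Gbp7, -1.04 to 0.54 for Zbp1, -0.65 to 0.60 for Trim30a, -0.58 to 0.0542 for Lgals3bp and -0.0274 to 0.51 for Isg15. In these 15 genes the highest value was the one without wild-type 3. Irf9, at -0.00, also turned to 0.0165 with the block, 0.00143 with RLE scaling, 0.000818 with DESeq2, 0.0254 with DESeq2 and the block and 0.00312 without a filter, and Gbp7 to 0.00467 with DESeq2 and the block. The cause was not tested. RLE scaling and dropping the filter changed the number counts by less than 1.5 times, apart from number 3 over 1 without a filter, at 24 in place of 16, and DESeq2 called 29 members by number. Depth limits Mx1, Oas3 and Oas1g, which had few counts.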
